A study of Saccharomyces cerevisiae with 3 samples.

Results

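Autophagy is the process by which a cell wraps part of its cytoplasm, or a chosen cargo, in a double membrane and delivers it to the vacuole, the yeast counterpart of the lysosome. Most of its machinery was found in budding yeast and carries ATG names. The Atg1 kinase starts the membrane, vesicles with Atg9 feed it, a lipid kinase marks it, and the ubiquitin-like proteins Atg8 and Atg12 are conjugated to build it. Receptors such as Atg19 bring specific cargo.

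The data cover 36 ATG deletion strains of *Saccharomyces cerevisiae*, out of 5325 named genes on the array. They are all genes whose annotated symbol starts with ATG and a number, measured by 132 of 18794 named probes. All 36 had a value in every experiment and could be tested, together with 5168 other strains. VPS30, whose protein is also called Atg6, and SNX4, also called Atg24, carry other symbols and were counted with the rest of the pathway. None of the 36 systematic names lies on chromosome V, which carries CIN8 (0 of 36).

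The screen asked how each deletion affects cells that lack CIN8, the gene of a mitotic kinesin. A pool of haploid-convertible heterozygous diploid deletion strains was transformed with a cin8D::URA3 cassette and sporulated. Haploid double mutants, which carry cin8D::URA3 and a strain's own deletion, were recovered on minimal medium (MM) without uracil, and haploid single mutants, which lack the cassette, on MM with 5-fluoroorotic acid (5-FOA), a compound that kills cells with URA3. A total of 3 experiments, with 0.1, 0.15 and 0.2% 5-FOA, compared both pools on 1 array each. A strain is read through 2 short DNA tags in its genome, here called tag A and tag B, so that a value reflects the strain's share of each pool and not its growth alone.

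Values are log2 ratios between the pools, centred so that the median probe of every tag set is 0 on every array, and means are given ± SD over the 3 experiments (n = 3). The sources used here do not give the direction of the ratio, so that no pool is assigned to either side. For orientation, the strain lacking URA1, an enzyme of uracil synthesis, stood at 4.87 ± 0.50 and that lacking KIP1, the other kinesin of the CIN8 family, at 4.99 ± 0.50. The CIN8 strain itself stood on the other side, at -2.23 ± 0.26. The arrays held 18788 to 19061 values each. Whether the experiments were separate sporulations is not in the labels, and p-values thus reflect only the variation among 3 arrays, which may be technical. A strain was called where limma's adjusted p was under 0.05.

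As a group, the ATG strains lay close to the median of the array. In the test of the mean over both tags, they were called about as often as strains in general. Calls by each tag in the same direction were fewer, at 8.33% of members, beside 16.9% of strains measured by both tags. Limma called 12 of 36 (33.3%), beside 33.6% of all strains. The calls split into 5 positive and 7 negative, or 13.9% and 19.4% of the members, beside 16.2% and 17.4% of all strains. All 36 members had both tags on all arrays. Among strains of that kind the same fit called 35.7%, with 19.1% positive and 16.5% negative. The median of the ATG strains was -0.01, against -0.10 over all strains tested, and 18 of the 36 means were above 0. An unadjusted p under 0.05 was found for 17 members (47.2%, beside 49.8% of all strains). The sign was the same in all 3 experiments for 28 members (77.8%, beside 70.5% of all strains).

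The group median stayed near that of the other strains in each experiment. It was -0.07, -0.02 and 0.00 for the ATG strains in experiments 1, 2 and 3, against -0.07, -0.06 and -0.08 for the other strains. The direction of this small difference depended on the tag and, within tag A, on the experiment. ATG minus other medians were -0.03, -0.07 and 0.09 in tag A in experiments 1, 2 and 3, and 0.09, 0.11 and 0.09 in tag B. The medians of the means were -0.05 for the ATG strains and -0.02 for all strains in tag A, and 0.03 and -0.01 in tag B. All 36 ATG strains had both tags on all arrays, which holds for 4293 strains of the series, and the median of those 4293 was -0.01, the same to 2 decimals as that of the ATG strains. The 911 tested strains without both tags everywhere had a median of -0.70.

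The ATG means were spread less widely than those of the series. They ran from -1.69 to 1.07 with an interquartile range of 0.63, against 1.03 for all strains, or 0.91 where both tags were present throughout. A mean at least 2-fold from 0 was found for 3 ATG strains (8.33%), all of them called, beside 22.0% of all strains, or 14.8% where a call was also required. Among strains with both tags everywhere, 18.2% were at least 2-fold from 0. The spread of a strain over experiments was also smaller, with a median SD of 0.13 for ATG strains and 0.23 for all strains, or 0.19 for those with both tags. No test was made of these differences between the group and the series.

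**Figure D1:**
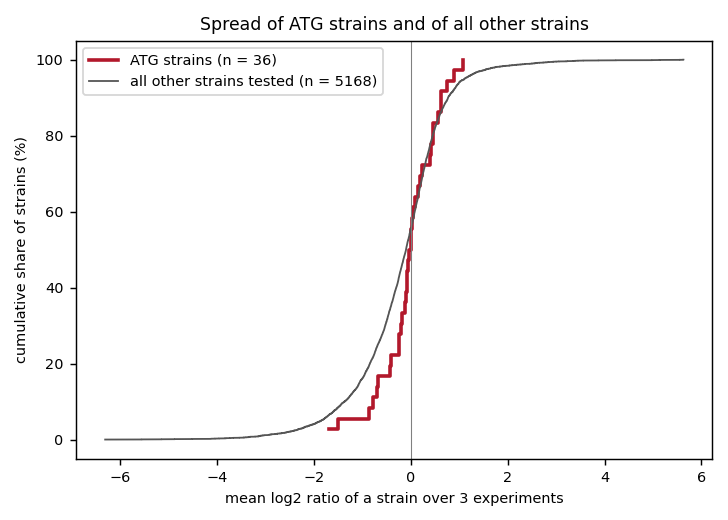
Cumulative share of strains (%) against the mean log2 ratio of a strain over 3 experiments, for the 36 ATG strains and the 5168 other strains tested. The ATG quartiles (-0.24, -0.01 and 0.39) each lie above those of the other strains (-0.68, -0.10 and 0.35). The ATG curve is steeper, with all means between -1.69 and 1.07.

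The means of the called ATG strains changed little when an experiment was left out, with all 12 keeping their sign. These 12 were called because their means stood out from the spread over the same 3 arrays. Steady means with an experiment left out thus follow partly from that choice. The mean log2 ratio that moved most was that of ATG18, by a factor of 1.23. ATG3 then stood at -1.55 to -1.44 and ATG21 at 0.97 to 1.14. With 2 arrays limma called 0 strains of the whole series (0%), so that calls could not be compared. Without experiments 1, 2 and 3, 10, 13 and 12 members had an unadjusted p under 0.05 (27.8, 36.1 and 33.3%), beside 35.9, 37.9 and 35.8% of all strains. Of the 12 called strains, 3 were called by each tag on its own, all positive, namely ATG21, ATG40 and ATG45. This is 8.33% of the members, beside 16.9% of all strains measured by both tags. Both tags were called negative for 0 of 36 members, beside 5.71% of all strains measured by both tags.

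**Figure D2:**
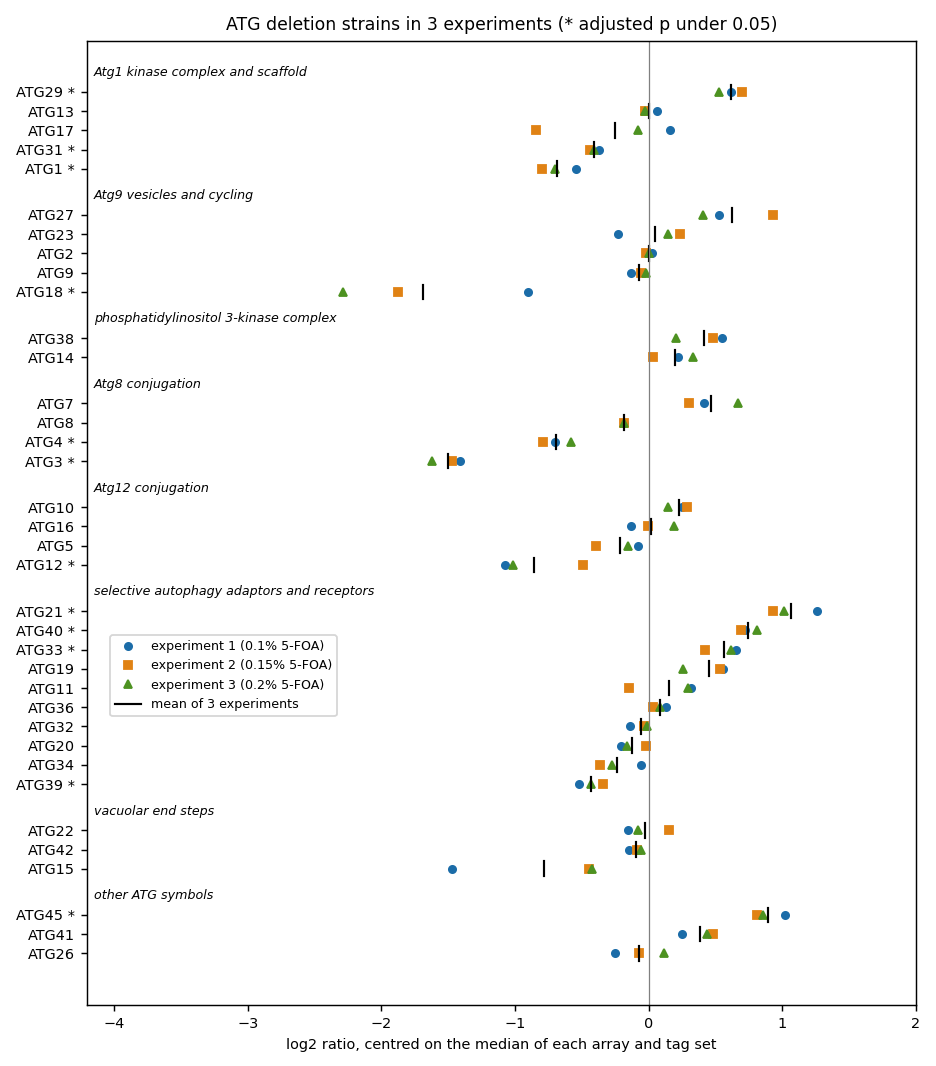
Centred log2 ratios of the 36 ATG strains in 3 experiments (symbols), with the mean as a bar, by role of the gene; an asterisk marks an adjusted p under 0.05. Most strains lie within 0.5 of 0 (24 of 36, or 66.7%), beside 51.1% of all strains and 54.7% of those with both tags everywhere. ATG18 and ATG3 are the lowest while ATG21 is the highest.

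The highest mean of the 36 was that of ATG21, which was placed here in the adaptor and receptor group. Atg21 is a phosphoinositide-binding protein of the cytoplasm-to-vacuole targeting (Cvt) pathway, which brings hydrolases to the vacuole. Its strain had ratios of 1.26, 0.93 and 1.01 in experiments 1, 2 and 3, a mean of 1.07 ± 0.17 or 2.10-fold (limma, adjusted p = 0.0157). Tag A gave 1.24 and tag B 0.90, both called. It ranked 278th from the top of the 5204 strains tested.

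ATG40 and ATG45 followed, with all values above 0. Atg40 is a receptor for autophagy of the endoplasmic reticulum, and its strain had 0.72, 0.69 and 0.81 in the 3 experiments (mean 0.74 ± 0.06, adjusted p = 0.0179). ATG45, which was placed among the other ATG symbols, had 1.02, 0.81 and 0.85 (mean 0.89 ± 0.11, adjusted p = 0.0160). Both strains had tags that differed little, at 0.61 in tag A and 0.87 in tag B for ATG40. For ATG45, tag A gave 0.83 and tag B 0.96.

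The other members of the adaptor and receptor group were mixed. Of its 10 strains, 3 were called positive (30%) and 1 negative (10%), beside 16.2% and 17.4% of all strains. The group median was 0.12. No test was made of the role groups, which hold 2 to 10 strains. ATG33, whose product sits in the mitochondrial outer membrane and takes part in mitophagy, had 0.66, 0.43 and 0.61 (mean 0.57 ± 0.12, adjusted p = 0.0316). Its call rested on tag A, at 0.87, while tag B gave 0.26 and was not called. ATG39, a receptor for autophagy of the nuclear envelope, was the negative one, with -0.52, -0.34 and -0.43 (mean -0.43 ± 0.09, adjusted p = 0.0438) and neither tag called alone. Atg39 and Atg40 are both receptors for parts of the endoplasmic reticulum, and their strains lay on opposite sides of 0 in all 3 experiments.

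The remaining 6 strains of that group were not called. ATG19, the receptor of the Cvt pathway, had 0.56, 0.53 and 0.26 (mean 0.45 ± 0.17), with a 95% interval of 0.12 to 0.78 and an adjusted p of 0.0574. Both of its tags gave 0.45. ATG34, a receptor of alpha-mannosidase and the neighbour of ATG19 on the chromosome, had -0.06, -0.37 and -0.28. The strain values of these adjacent genes did not overlap, but their difference was not tested. The tags of ATG34 disagreed, with tag A at -0.51 (limma on tag A alone, adjusted p = 0.0498) and tag B at 0.04. In tag B of experiment 1, ATG34 gave 0.54, which lay within the tag B values of ATG19.

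ATG11, the scaffold of selective autophagy, had 0.32, -0.14 and 0.30 (mean 0.16 ± 0.26, 95% interval -0.26 to 0.58). ATG32, the mitophagy receptor, had -0.14, -0.03 and -0.01 (mean -0.06 ± 0.07, 95% interval -0.32 to 0.20). ATG36, the receptor for peroxisomes, averaged 0.08 and ATG20, a sorting nexin, -0.13.

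Strains of the Atg1 kinase complex, which starts autophagosome formation, went both ways, with a median of -0.25. Of its 5 strains, 2 were called negative (40%) and 1 positive (20%), beside 17.4% and 16.2% of all strains. ATG1, the gene of the kinase itself, had -0.55, -0.80 and -0.70 (mean -0.68 ± 0.13, or 1.61-fold from 0, adjusted p = 0.0243). All 6 of its tag values were below 0, with tag A at -0.91 and called, and tag B at -0.45 and not called. ATG13, which encodes the regulatory partner of Atg1, had 0.06, -0.02 and -0.02 (mean 0.00 ± 0.05, 95% interval -0.25 to 0.26). Behind this mean, tag A was below 0 in all experiments, at -0.31, and tag B above 0 in all, at 0.32, with neither called.

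Atg17, Atg29 and Atg31 form a stable scaffold, and their strains differed. ATG29 had 0.62, 0.70 and 0.53 (mean 0.62 ± 0.09, adjusted p = 0.0248), with tag A at 0.90 and called and tag B at 0.33. ATG31 had -0.37, -0.44 and -0.41 (mean -0.41 ± 0.03, adjusted p = 0.0423). Its call rested on tag B, at -0.74, while tag A gave -0.07 (adjusted p = 0.623) and was not called. ATG17 was not called and was the least steady of them, at 0.16, -0.84 and -0.08 (mean -0.25 ± 0.52), since tag A gave -1.68 in experiment 2 and 0.52 in experiment 1. The ATG29 and ATG31 strain values lay on opposite sides of 0 in every experiment, each through a call in 1 tag. The annotated ATG29 gene overlaps SET6, and the SET6 strain, picked out for this overlap, had 0.52, 0.52 and 0.64 (mean 0.56 ± 0.07, adjusted p = 0.0265), on the same side as ATG29.

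In the group of Atg9 vesicles and their cycling, 1 of 5 strains was called (20%, beside 33.6% of all strains). The group median was 0.00. ATG18, the gene of a phosphoinositide-binding protein that works with Atg2, had the lowest mean of all members, with -0.90, -1.88 and -2.29 (mean -1.69 ± 0.71, or 3.22-fold, adjusted p = 0.0364). The shift was carried by tag A, which gave -1.65, -3.91 and -4.48, while tag B gave -0.15, 0.15 and -0.10. The difference between the tags had a size of -3.31 (tag A minus tag B), with an adjusted p of 0.0851. ATG2, whose protein transfers lipids and binds Atg18, was at 0.02, -0.02 and 0.00 (mean 0.00 ± 0.02). The partners' strain values lay apart in every experiment, through tag A of ATG18, and their difference was not tested. In tag B, ATG2 gave 0.18, 0.24 and -0.03, beside -0.15, 0.15 and -0.10 for ATG18.

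Atg18 and Atg21 are related proteins of the same fold, and their strains lay at the opposite ends of the ATG group. The ATG18 values were all at or below -0.90 and the ATG21 values all at or above 0.93. In tag B, however, ATG18 was close to 0. The strain of HSV2, the third gene of this protein family in yeast, was looked up for this comparison after the ATG values were seen, and stood at -0.91 ± 0.27 (adjusted p = 0.0266).

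The other Atg9-related strains were not called. ATG9, which encodes the membrane protein of the vesicles, had -0.13, -0.06 and -0.02 (mean -0.07 ± 0.06) with 36 values from 12 probes. ATG27, a membrane protein that helps Atg9 traffic, had 0.53, 0.93 and 0.41 (mean 0.62 ± 0.27, adjusted p = 0.0519), and its tag A was called at 0.71. ATG23, a peripheral membrane protein of the same route, averaged 0.05 ± 0.25. In the lipid kinase complex, ATG14 averaged 0.19 ± 0.15 and ATG38 0.41 ± 0.18, and neither was called.

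The Atg8 conjugation strains spanned most of the range of the group, with a median of -0.44. Of these 4 strains, 2 were called, both negative (50%, beside 17.4% of all strains called negative). Atg4 trims Atg8, Atg7 activates it, and Atg3 passes it to a membrane lipid. The ATG8 strain had -0.19, -0.18 and -0.18 (mean -0.18 ± 0.00, 95% interval -0.43 to 0.06, adjusted p = 0.169) from 36 values and was not called. The tags varied more than this mean, with -0.07, -0.26 and 0.00 in tag A and -0.30, -0.11 and -0.36 in tag B (SD 0.13 each). ATG7, whose product acts in both conjugation systems, had 0.42, 0.31 and 0.67 (mean 0.46 ± 0.19, adjusted p = 0.0587), with tag A at 0.69 and called and tag B at 0.24.

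ATG3 and ATG4 each had a call that the tags or spots did not share. ATG3 had -1.41, -1.47 and -1.62 (mean -1.50 ± 0.11, or 2.83-fold, adjusted p = 0.0106), the smallest adjusted p of the ATG group. Tag B gave -2.66, -3.03 and -3.15, while tag A gave -0.16, 0.08 and -0.09. The tag difference of 2.89 (tag A minus tag B) had an adjusted p of 0.0170, and ATG3 was the only member of 36 called in that test (2.78%, beside 7.22% of strains with both tags). This test was added after the ATG3 and ATG18 tags were seen to differ.

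ATG3 is 1 of 6 members spotted 6 times per tag, so the tag difference can be seen spot by spot. The 18 tag B spots of ATG3 lay between -4.49 and -1.83, and its 18 tag A spots between -0.31 and 0.21, without overlap. For ATG31 the spots of a tag lay close together, with no spot SD above 0.07, and its tag difference of 0.68 was not called (adjusted p = 0.0887). ATG8, ATG9 and ATG14 had spot SDs of at most 0.14 within a tag and array.

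ATG4 was the opposite case, where spots of the same tag on the same array disagreed. Its strain means were -0.70, -0.79 and -0.58 (mean -0.69 ± 0.11, adjusted p = 0.0218), but these rested on 22 of 36 values, and all 14 values missing among the ATG probes were those of ATG4. The spots ran from -4.87 to 3.43 within tag A of experiment 1. The median spot SD of ATG4 was 1.34, against 0.13 for the median of the 781 strains with 12 probes, of which 9 had a larger one. Its tag means crossed between experiments, with -0.12, -0.12 and -1.81 in tag A and -1.28, -1.46 and 0.65 in tag B, and neither tag was called. The SD of the strain means, 0.11, was thus far smaller than the spread of the spots behind them. With the median of spots in place of the mean, ATG4 stood at -0.46 and was not called. Without ATG4, 11 of 35 members were called (31.4%), with a median of 0.00.

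**Figure D3:**
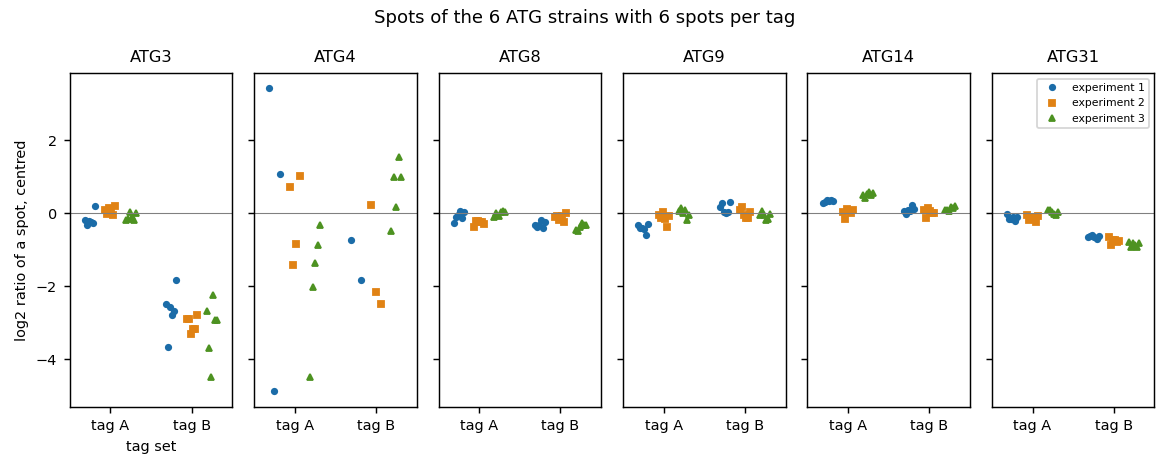
Centred log2 ratios of single spots (vertical axis) for the 6 ATG strains with 6 spots per tag, by tag set and experiment. The tag B spots of ATG3 lie far below its tag A spots, the ATG4 spots scatter from -4.87 to 3.43, and the spots of ATG8, ATG9 and ATG14 stay between -0.58 and 0.60.

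In the Atg12 conjugation group 1 of 4 strains was called (25%, beside 33.6% of all strains). ATG12, the gene of the ubiquitin-like protein, had -1.08, -0.49 and -1.02 (mean -0.86 ± 0.32, or 1.81-fold, adjusted p = 0.0364). All 6 of its tag values were below 0, with tag A at -0.66 (adjusted p = 0.0559) and tag B at -1.06 (adjusted p = 0.0249). The other 3 strains of this group were not called, and their difference from ATG12 was not tested. ATG5, whose product receives Atg12, had -0.08, -0.40 and -0.15 (mean -0.21 ± 0.16), ATG10, the enzyme that attaches it, averaged 0.23 ± 0.08, and ATG16, the partner of the conjugate, 0.02 ± 0.16.

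None of the 3 strains of the vacuolar end steps was called (0%, beside 33.6% of all strains). ATG15, a lipase that breaks down the inner membrane in the vacuole, was the fourth lowest member, with -1.47, -0.44 and -0.43 (mean -0.78 ± 0.60, 95% interval -1.59 to 0.04, adjusted p = 0.109). Both tags shared the low value of experiment 1, at -1.37 and -1.57. ATG22, a vacuolar amino acid exporter, averaged -0.03 ± 0.16 and ATG42, a vacuolar carboxypeptidase, -0.10 ± 0.05. Of the other ATG symbols, ATG41 averaged 0.39 ± 0.12 (adjusted p = 0.0601) and ATG26, a sterol glucosyltransferase, -0.07 ± 0.18.

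**Figure D4:**
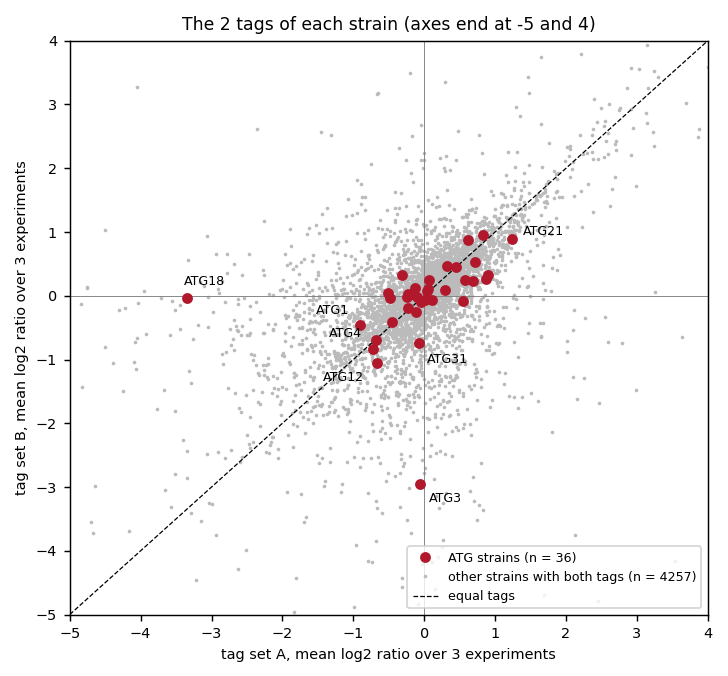
Mean log2 ratio in tag set A (horizontal axis) and tag set B (vertical axis) for the 36 ATG strains and 4257 other strains with both tags on all arrays; the dashed line marks equal tags. ATG18 and ATG3 lie near an axis, with only 1 tag far from 0, while ATG21 is far from 0 in both.

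Across the ATG strains the tags had the same sign in 28 of 36 cases and opposite signs in 8, and no strain had its tags called in opposite directions, beside 1.47% of strains with both tags. Opposite signs occurred in 26.9% of all strains with both tags. The median size of the tag difference was 0.22 for ATG strains and 0.33 for the others. A difference above 1 was found for 2 members, ATG3 and ATG18. Tag A alone called 12 of 36 members (33.3%, beside 34.6% of all strains), 9 positive and 3 negative, and tag B alone called 6 (16.7%, beside 33.2%), 3 on each side.

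The ratios of the ATG strains did not follow the 5-FOA concentration in a way the test could detect. Limma's trend over 0.1, 0.15 and 0.2% called 0 of 36 members and 0 of all strains (0%), with 1 member at an unadjusted p under 0.05 (2.78%, beside 5.05% of all strains). That member was ATG18, at a slope of -1.38 per 0.1% (unadjusted p = 0.0348, adjusted p = 0.978), and its slope stems from tag A. The fit had 1 residual degree of freedom, and concentration and experiment cannot be told apart.

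Other genes of the pathway, which lack an ATG symbol, were spread more widely, but this comparison was not matched for tags. Unlike the ATG strains, some of them, such as PEP4 and ARP2, lacked a tag on an array. In the series, strains without both tags everywhere had an interquartile range of 1.32, against 0.91 for those with both. Of 29 strains measured out of a list of 30, 6 were called positive and 6 negative (12, or 41.4%, beside 33.6% of all strains), with a median of -0.04 and an interquartile range of 1.30. The called strains farthest from 0 were YPT1, PRB1, ARP2 and YPT7. YPT1, an essential GTPase of early membrane traffic, averaged -3.25 ± 1.15 (adjusted p = 0.0266). Its tag A gave -0.03, -4.49 and -3.02 and was not called, while tag B was called at -3.98. ARP2, an essential actin regulator, averaged -2.67 ± 1.07 (adjusted p = 0.032) from 4 of 6 values. Its tag B was measured in experiment 3 alone and could not be tested, and tag A was not called. Both pools hold haploids, and whether strains lacking an essential gene, such as YPT1 and ARP2, gave signal above background was not tested.

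YPT7 and PRB1, also among the called strains of this list farthest from 0, lay on opposite sides of 0. YPT7, the GTPase of vacuole fusion, averaged -2.53 ± 0.10 (adjusted p = 0.00836), with tag A at 0.01 and tag B at -5.07, where 2 values were at the lowest deposited ratio, so that the mean is an upper bound. PRB1, a vacuolar protease gene next to CIN8 on chromosome V, averaged 3.24 ± 0.21 (adjusted p = 0.00856), with tags at 3.88 and 2.61. For PRB1, effects of this position and of the lost protease cannot be told apart. VPS30 averaged -0.29 ± 0.08 (adjusted p = 0.0886) and was not called, while SNX4 averaged -0.43 ± 0.06 (adjusted p = 0.0416) and was called.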

How the data were processed

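The values are log2 ratios that the authors deposited for 22575 probes on each of 3 arrays. Per the labels, Cy3 marked the double-mutant pool and Cy5 the single-mutant pool, and GenePix software read the scans. Formula, normalization and direction are not given in the sources used here. The deposited columns had medians of -0.17, -0.15 and -0.15. Of all values, 36 at a ratio of 999999 were treated as placeholders, none of them from ATG probes (0). Symbols came from the platform annotation. All 36 matched RefSeq's table of assembly R64. Probes 10971 identifiers apart that name the same gene were taken as tag A and tag B.

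The median of the named probes of a tag set was subtracted on each array. Means were taken over the spots of a tag and then over both tags, and these strain values were tested against 0 on all 5204 strains with limma 3.58.1 in R 4.3.3 (lmFit on an intercept, eBayes, two-sided, Benjamini-Hochberg). Intervals are at 95%. The same test was run per tag, on the tag difference, and for a 5-FOA slope. Steps were tested on simulated data. Python 3.11.15 and matplotlib 3.10.9 drew the plots. No intensities were at hand to judge signal over background, and precision is limited by having 3 arrays. The members and lists were chosen with earlier results of these data known. All members are named, and up to 4 called pathway strains by size. HSV2 and SET6 were named after values were seen. Alternatives changed centring, spot averaging, tags, prior, covariate, lowest ratios and arrays.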

Additional observations from a re-analysis of the deposited data

How the results depend on the processing

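Without experiment 1, 2 or 3 the ATG calls were 0 to 0 in total, on the positive side and on the negative side, and 0 to 0 by both tags. With 2 arrays limma called 0 of all strains, with the smallest adjusted p at 0.0628, so that these counts say nothing about single members. Among the called members the mean log2 ratio moved most for ATG18, by a factor of 1.23. Adding the 5-FOA percentage, which takes 1 of 2 residual degrees of freedom, left 1 call (0 positive, 1 negative, ATG3), or 2.78% of members beside 4.38% of all strains, and 0 by both tags. Tag A alone gave 9 positive and 3 negative calls and a median of -0.048. Tag B alone gave 6 calls (3 and 3) and a median of 0.030. The tag value nearer to 0 gave 2 calls (2 positive, 0 negative), ATG21 and ATG45, or 5.56% of members beside 11.4% of all strains. Among strains with both tags on all arrays only, 10 were positive, and 17 were called in all (47.2%, beside 44.9% of those strains). Without centring the median was -0.18, against -0.26 over all strains. The other settings kept 11 or 12 calls. Keeping the placeholders and leaving out ATG4 were chosen after seeing the data.

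No called strain changed sign under a setting that gave it a value (0). The called strains were chosen on these same arrays, so that this is partly built in. Of the members not called, 13 changed sign at least once, and the cause was not tested. Without centring, which lowers all values, these were ATG11 (-0.0087), ATG13 (-0.16), ATG16 (-0.15), ATG2 (-0.17), ATG23 (-0.11) and ATG36 (-0.081). With both tag sets centred together ATG13 and ATG2 stood at -0.0039 and -0.0080, and with the lowest ratios left out at -0.0065 and -0.011. Tag A alone gave -0.31 for ATG13, -0.13 for ATG2 and 0.018 for ATG22. Tag B alone gave -0.086 for ATG10, -0.064 for ATG16, 0.040 for ATG34, 0.030 for ATG42 and 0.030 for ATG9. Leaving out an experiment gave ATG13 -0.024 to 0.019, ATG2 -0.011 to 0.011, ATG22 -0.12 to 0.037, ATG26 -0.16 to 0.022, ATG17 -0.46 to 0.042, ATG23 -0.042 to 0.19 and ATG16 -0.067 to 0.097.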
